A study of Drosophila melanogaster with 48 samples.

Results

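The genes described here are maternal genes that are on in some lines of Drosophila melanogaster and off in others. In a newly laid egg almost all mRNA was made by the mother during oogenesis, and these maternal transcripts run the first cleavage divisions until the genome of the embryo is activated. Stage 2 embryos, which precede that activation, therefore show the RNA of the mother, while at the end of stage 5, when the blastoderm has formed cells, much maternal RNA has been cleared and the zygotic genome is transcribed. A maternal transcript that is absent at stage 2 can still be supplied by the zygote at stage 5, and RNA left from the mother and new zygotic RNA cannot be told apart in these counts.

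RNA was sequenced from single embryos of 8 isofemale lines, of which RAL307, RAL357, RAL360 and RAL517 were founded in Raleigh and ZI050, ZI094, ZI160 and ZI470 in Zambia. From each line 3 embryos were taken at stage 2 and 3 at late stage 5, so 48 in all. No treatment is given in the labels, each line stands for 1 inbred sample of its population, and the stage 5 embryos had been genotyped as male while the sex of the stage 2 embryos was not known. A line was called on for a gene when the mean of its stage 2 embryos was at least 5 CPM (the count of the gene for every 1000000 counts of the embryo) and off when it was under 0.5 CPM, and levels in between were left without a state. A protein-coding gene was taken when at least 1 line was on and at least 1 other was off, and ZI470 replicate 1 of stage 2 was not used for this choice. These limits took 133 of the 13834 protein-coding genes, or 2.11% of the 6301 that reached 5 CPM in a line, while 5865 genes reached 5 CPM in every line. Since stage 2 values chose the genes, their stage 2 levels are given as a description with no test, and tests were made only on the stage 5 embryos.

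Total counts ranged from 25090803 to 30329144 at stage 2 and from 340746 to 30783589 at stage 5. The lowest total is that of RAL360 replicate 3 at stage 5, in which 1 count equals 2.93 CPM, and the next lowest stage 5 total was 25394907. The summed level of 4 maternal mRNAs (osk, nos, bcd and gcl) was 1673 to 2377 CPM at stage 2 and 32.4 to 73.0 CPM at stage 5, and that of 5 early zygotic genes (ftz, eve, sna, twi and kni) was 1.16 to 4.58 CPM and 1042 to 1455 CPM. The sum of 10 eggshell genes, which mark the follicle cells around the oocyte, was at most 0.484 CPM in a stage 2 embryo, with 5 of them at 0 in every one, and that of 3 yolk protein genes was at most 0.231 CPM. ZI470 replicate 1 of stage 2 went against its label on many of the 133 genes, and its values are given apart. In RNA of whole stage 5 embryos, fewer cells with a transcript and less of it per cell cannot be told apart.

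**Figure D1:**
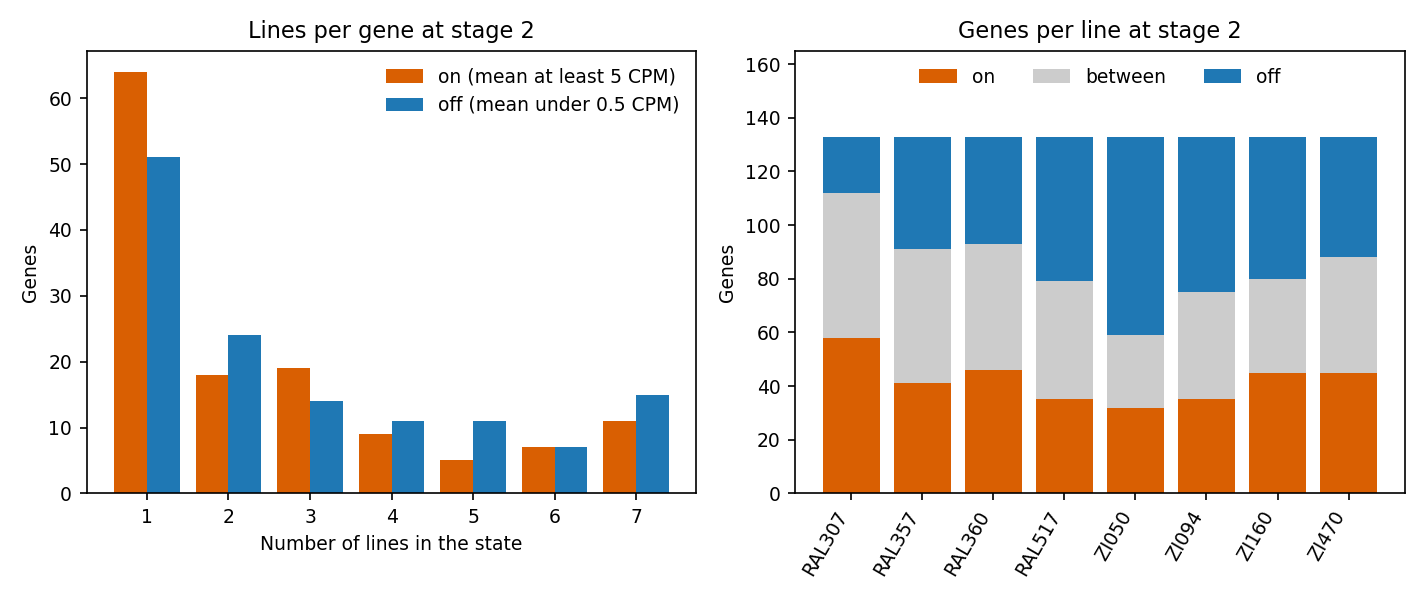
Number of lines that were on or off for each of the 133 genes (left) and number of the 133 genes that were on, between the limits or off in each line (right) at stage 2. The most frequent case was a gene on in 1 line, and ZI050 had the most genes off, 74 of 133.

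Most of the genes were on in few lines. Of the 133 genes 64 were on in 1 line, 18 in 2, 19 in 3, 9 in 4, 5 in 5, 7 in 6 and 11 in 7. An off state was also most often found in 1 line, for 51 genes, followed by 24 genes off in 2 lines, 14 in 3, 11 in 4, 11 in 5, 7 in 6 and 15 in 7. A sharp split with no line between the limits was seen for 31 genes, of which 15 were on in 1 line and off in the other 7 and 11 were off in 1 line and on in the other 7. In all, the genes showed 112 different combinations of on, between and off lines.

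The lines differed in how often they were the exception. RAL307 had the most genes on, 58 of 133, and the fewest off, 21, while ZI050 had the fewest on, 32, and the most off, 74. The other lines had 35 to 46 genes on and 40 to 58 off. A line was the only one on for 12 genes in RAL357, for 10 each in RAL307 and RAL360, for 9 each in ZI160 and ZI470, for 7 in ZI094, for 4 in RAL517 and for 3 in ZI050. ZI050 was the only line off for 16 genes and RAL517 for 9, against 1 gene for RAL307.

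The limits themselves set the 2 states far apart in counts, and the counts are given as a description. Summed over the embryos of a line that were used (3, or 2 in ZI470) an off line had a median of 11 counts and an on line a median of 974, and the lowest sum of an on line was 305 counts, of Galphaf in the 2 embryos of ZI470. The highest line mean of a gene was 13.1 CPM at the median and ranged from 5.12 to 224 CPM, and 47 genes never reached 10 CPM while 15 reached 50 CPM. For 20 genes there was a line in which no embryo used had a single count. The gene just inside the upper limit was Muc11A, a mucin, at 5.12 CPM in its highest line, and the gene just outside was vir-1 at 4.99 CPM. At the lower limit CG8066 was just inside with 0.498 CPM in its lowest line and the cytochrome P450 gene Cyp6a20 just outside with 0.518 CPM.

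**Figure D2:**
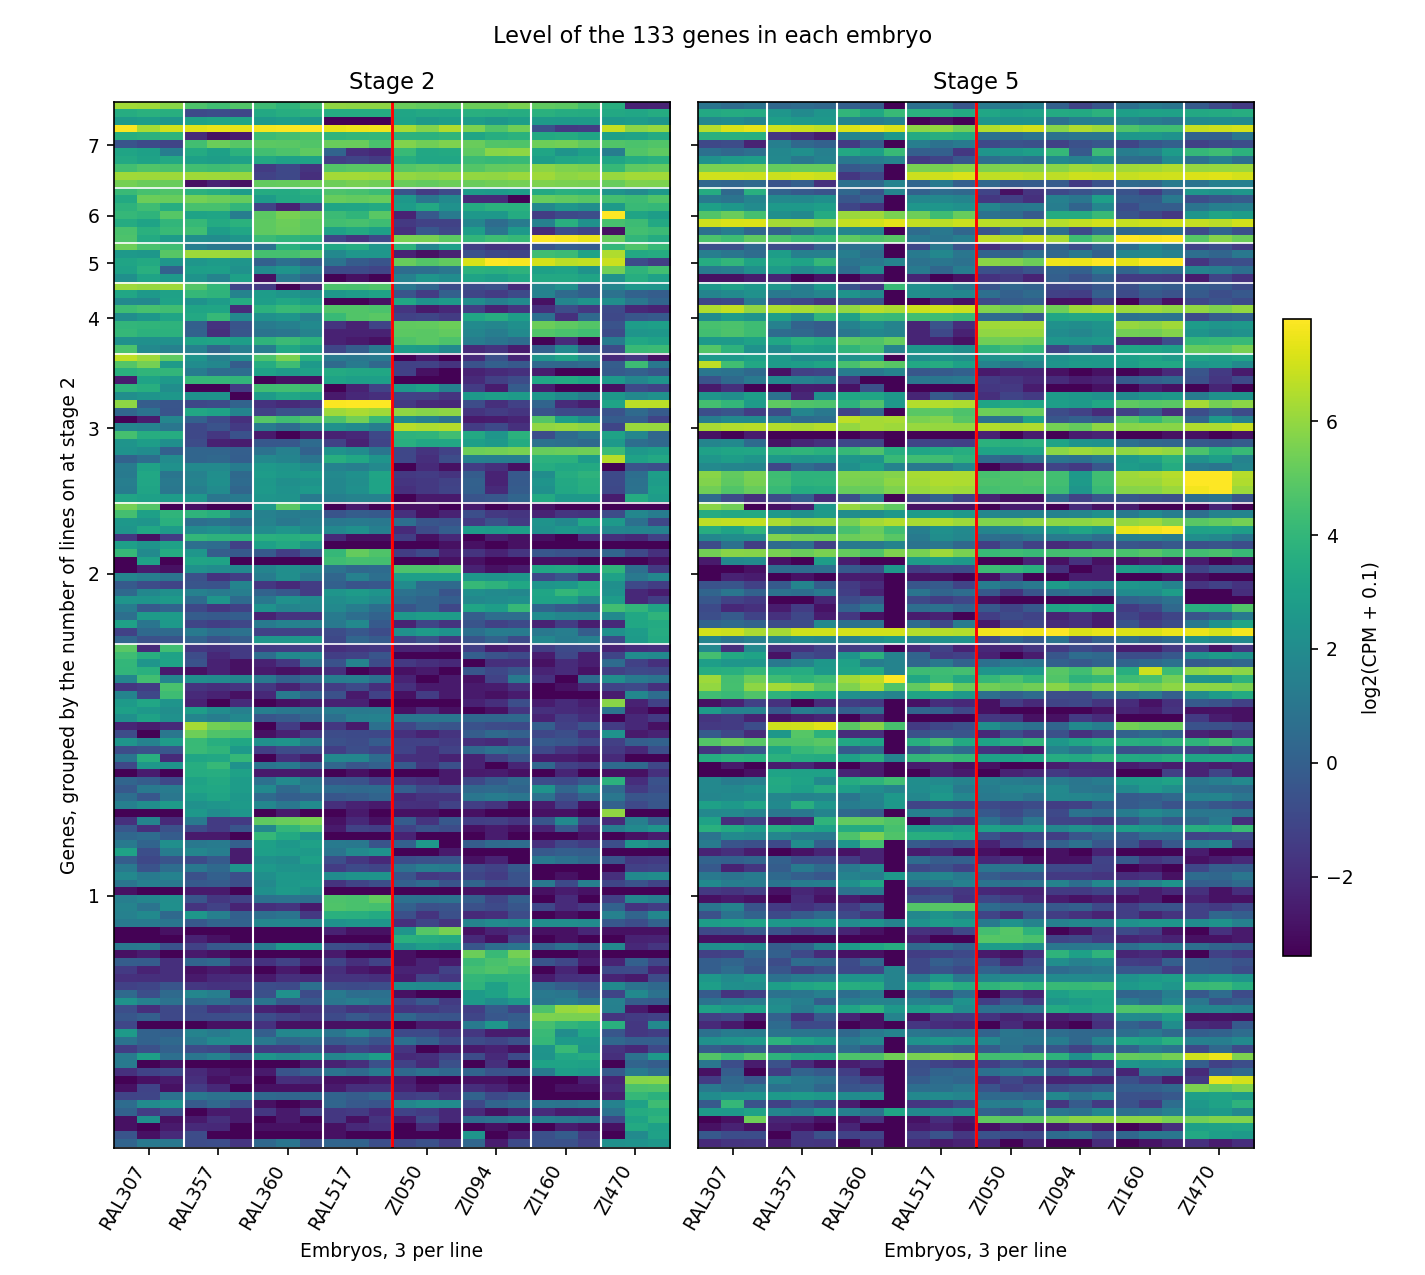
Level of each of the 133 genes (rows, grouped by the number of lines on at stage 2) in each of the 24 embryos per stage (columns, 3 per line, the red line parting Raleigh from Zambia), as log2 of CPM with 0.1 added. At stage 2 the 3 embryos of a line mostly look alike, except the first column of ZI470, and at stage 5 the last column of RAL360 is the embryo with 340746 counts, where undetected genes are dark because of its depth.

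The state was mostly shared by the embryos of a line, which came from many mothers. Every embryo was at 5 CPM or more in 265 of the 337 on line means and under 0.5 CPM in 324 of the 387 off line means. An off line cannot hold an embryo at 5 CPM, because its mean is under 0.5 CPM. When each of the 23 embryos was set against the states of its line, taken from its line mates alone, it was in the opposite state for 0 genes at the median and for 4 at most. Set against other lines it was in the opposite state for 13 to 34 genes. The genes had been chosen for differing between lines, so these counts are a description.

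ZI470 replicate 1 did not share the states of its line mates. It was in the opposite state for 19 genes, close to its 16 to 29 genes against the 7 other lines. Of these, 13 genes were on in ZI470 replicates 2 and 3 and under 0.5 CPM in replicate 1, among them gNacalpha, a germline copy of a subunit of the nascent polypeptide-associated complex (55.1 CPM against 0.104 CPM). The other 6 were off in ZI470 and at least 5 CPM in replicate 1, with Arc1 at 119 CPM against 0.375 CPM. This embryo had its lowest number of opposite states, 16, against ZI094. Keeping it in the choice would give 155 genes, of which 127 are among the 133.

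**Figure D3:**
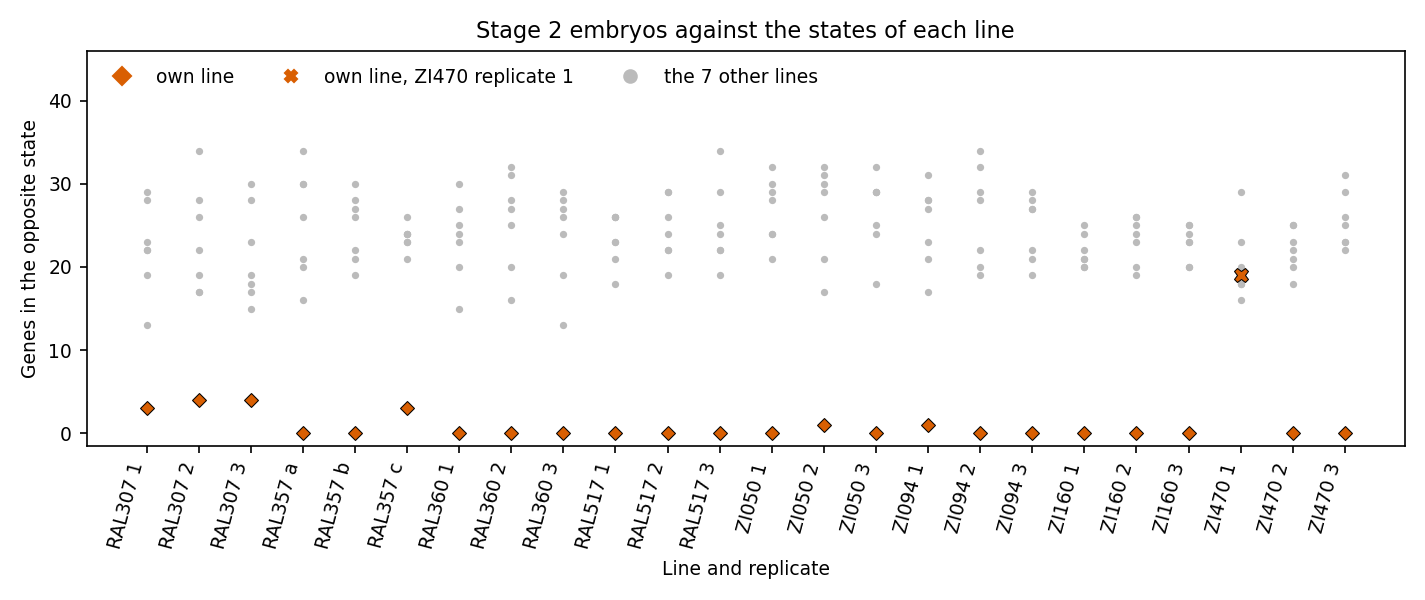
Number of the 133 genes for which a stage 2 embryo was under 0.5 CPM where a line was on or at 5 CPM or more where it was off, for its own line (diamonds, states taken from its line mates) and for the 7 other lines (circles). The 23 embryos used have 0 to 4 opposite states with their own line, and ZI470 replicate 1 (cross) has 19.

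The 8 on lines with an embryo under 0.5 CPM were all in RAL307 (5 genes) or RAL357 (3 genes). In RAL357 it was the same embryo, replicate c, that lacked the transcript each time. It had 0.361 CPM of dao against 15.9 and 28.1 CPM in its line mates, 0.144 CPM of Unc-115a against 8.68 and 8.94 CPM, and no count of CG17470 against 8.47 and 8.71 CPM. In RAL307 different embryos stood apart. CG13532 had 44.4 and 27.7 CPM in replicates 1 and 2 and no count in replicate 3, swi2 was low in replicate 2 only (0.138 CPM against 20.6 and 30.2 CPM), and CG42342 was high in replicate 3 only (24.1 CPM against 0.217 and 0.276 CPM). Counting lines whose mean fell between the limits as well, 15 cases in 14 genes had embryos on either side of both limits, 9 of them in RAL307, 3 in RAL357 and 1 each in ZI050, ZI094 and ZI160. A line mean can also hide a wide spread without crossing both limits. Nrm, which encodes the immunoglobulin superfamily adhesion protein neuromusculin, was on in RAL307 through replicate 1 (60.2 CPM), while the other embryos had 0.829 and 0.644 CPM.

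The states were seldom a difference between the populations. Of the 133 genes 45 were on in Raleigh lines alone, 36 in Zambia lines alone and 52 in both, and 24 were off in Raleigh lines alone, 51 in Zambia lines alone and 58 in both. The 45 and 36 genes include all 64 that were on in 1 line, which are on in 1 population alone by definition. An on and an off line were found within Raleigh for 53 genes, within Zambia for 64, within both for 7 and within neither for 23. All 4 Raleigh lines were off for 11 genes and all 4 Zambia lines for 15. The populations were fully split for 1 gene, Unc-115a (chromosome arm 3R, 9694386 to 9705417), which encodes an actin-binding protein known for its role in axon guidance, and no gene was on in all Zambia and off in all Raleigh lines.

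Unc-115a had stage 2 line means of 21.1, 5.92, 15.5 and 26.2 CPM in RAL307, RAL357, RAL360 and RAL517, and of 0.138, 0.209, 0.296 and 0.120 CPM in ZI050, ZI094, ZI160 and ZI470. The populations did not overlap in line means, but RAL357 replicate c (0.144 CPM) lay within the Zambia range. At stage 5 the gene was well above 5 CPM in all 8 lines, with 78.4 to 122 CPM in Raleigh and 47.4 to 67.4 CPM in Zambia.

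The highest stage 2 line mean was that of nrm, with 224 CPM in RAL517, followed in this gene by 98.7 CPM in ZI470 against 0.173 to 0.422 CPM in its 4 off lines. Lime (2R, 9871470 to 9873646), a zinc-finger factor that links immunity and metabolism, was on in 7 lines with 26.7 to 248 CPM over 20 embryos and a median of 145 CPM. In ZI160 its embryos had 0.538, 0.253 and 0.279 CPM.

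Hsp23 (3L, 9381882 to 9382765), a small heat shock protein and chaperone, was on in 6 lines at 6.67 to 236 CPM per embryo (median 18.9 CPM), and ZI160 had the highest line mean with 204 CPM. RAL517 was off with 0.373, 0.202 and 0.405 CPM, and RAL357 lay just under the upper limit with a line mean of 4.55 CPM. Pst, or pastrel, a gene known for resistance to viruses, was on in RAL357 (7.13 CPM), RAL517 (75.5 CPM) and ZI050 (58.9 CPM) and off in ZI094 and ZI160. Its 3 on lines were thus spread over both populations.

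Arc1 (2R, 14357927 to 14360297) and its neighbour Arc2 derive from a retrotransposon Gag gene and encode proteins that form capsid-like particles. Arc1 had 139 to 220 CPM in the embryos of ZI094, 98.3 to 137 CPM in ZI160 and 28.2 to 37.1 CPM in ZI050, lower line means of 8.32 and 5.86 CPM in RAL307 and RAL357, and 1.12 and 1.04 CPM in RAL360 and RAL517. It was off in ZI470 at 0.462 and 0.288 CPM in the embryos used. Arc2 was much lower, with a highest line mean of 6.74 CPM (ZI160), and was off in ZI470 as well (0.210 CPM).

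Several genes were off in a single line and on in the other 7. CG11307 (3L, 21617623 to 21619873) had 0.333, 0.407 and 0.171 CPM in the RAL360 embryos and line means of 61.8 to 75.7 CPM in the other 7 lines. Mth, the G protein-coupled receptor Methuselah that is known for its effect on life span, was also off in RAL360 (0.266, 0.407 and 0.206 CPM), against 19.6 to 57.5 CPM (median 30.0 CPM) in the 20 embryos of the on lines. P38a, a stress-activated MAP kinase, was off in RAL357 at 0.0339, 0.0997 and 0.0361 CPM, with 36.5 to 49.3 CPM in the other line means. CG4267 was off in ZI470 (0.0989 and 0.108 CPM) and had line means of 18.2 to 68.8 CPM elsewhere, but ZI470 replicate 1, which was not used, had 12.1 CPM, just under the 14.6 CPM of the lowest embryo of an on line. The levels of the on lines were within a narrow range for CG11307 and p38a and more spread for mth and CG4267.

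The reverse, a transcript supplied by 1 line alone, was as clear in some genes. GNacalpha had 54.1 and 56.2 CPM in ZI470 replicates 2 and 3 and at most 0.170 CPM in the embryos of the other 7 lines. CG13084 (2L, 19484930 to 19486532) had 38.3, 18.3 and 43.4 CPM in ZI094 and at most 0.0691 CPM in the other embryos used. Nep3, a member of the neprilysin family of metallopeptidases, had 5.36, 28.3 and 44.7 CPM in ZI050, a wide spread, and at most 0.145 CPM in the others. CG5937 had 25.2, 68.1 and 78.7 CPM in ZI160, and line means of 0.033 to 0.485 CPM in the other 7. CG17919, on in ZI470 alone, had line means of 25.6 CPM there and 0.0253 to 0.139 CPM elsewhere, but ZI470 replicate 1, which was not used, had 0.138 CPM.

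**Figure D4:**
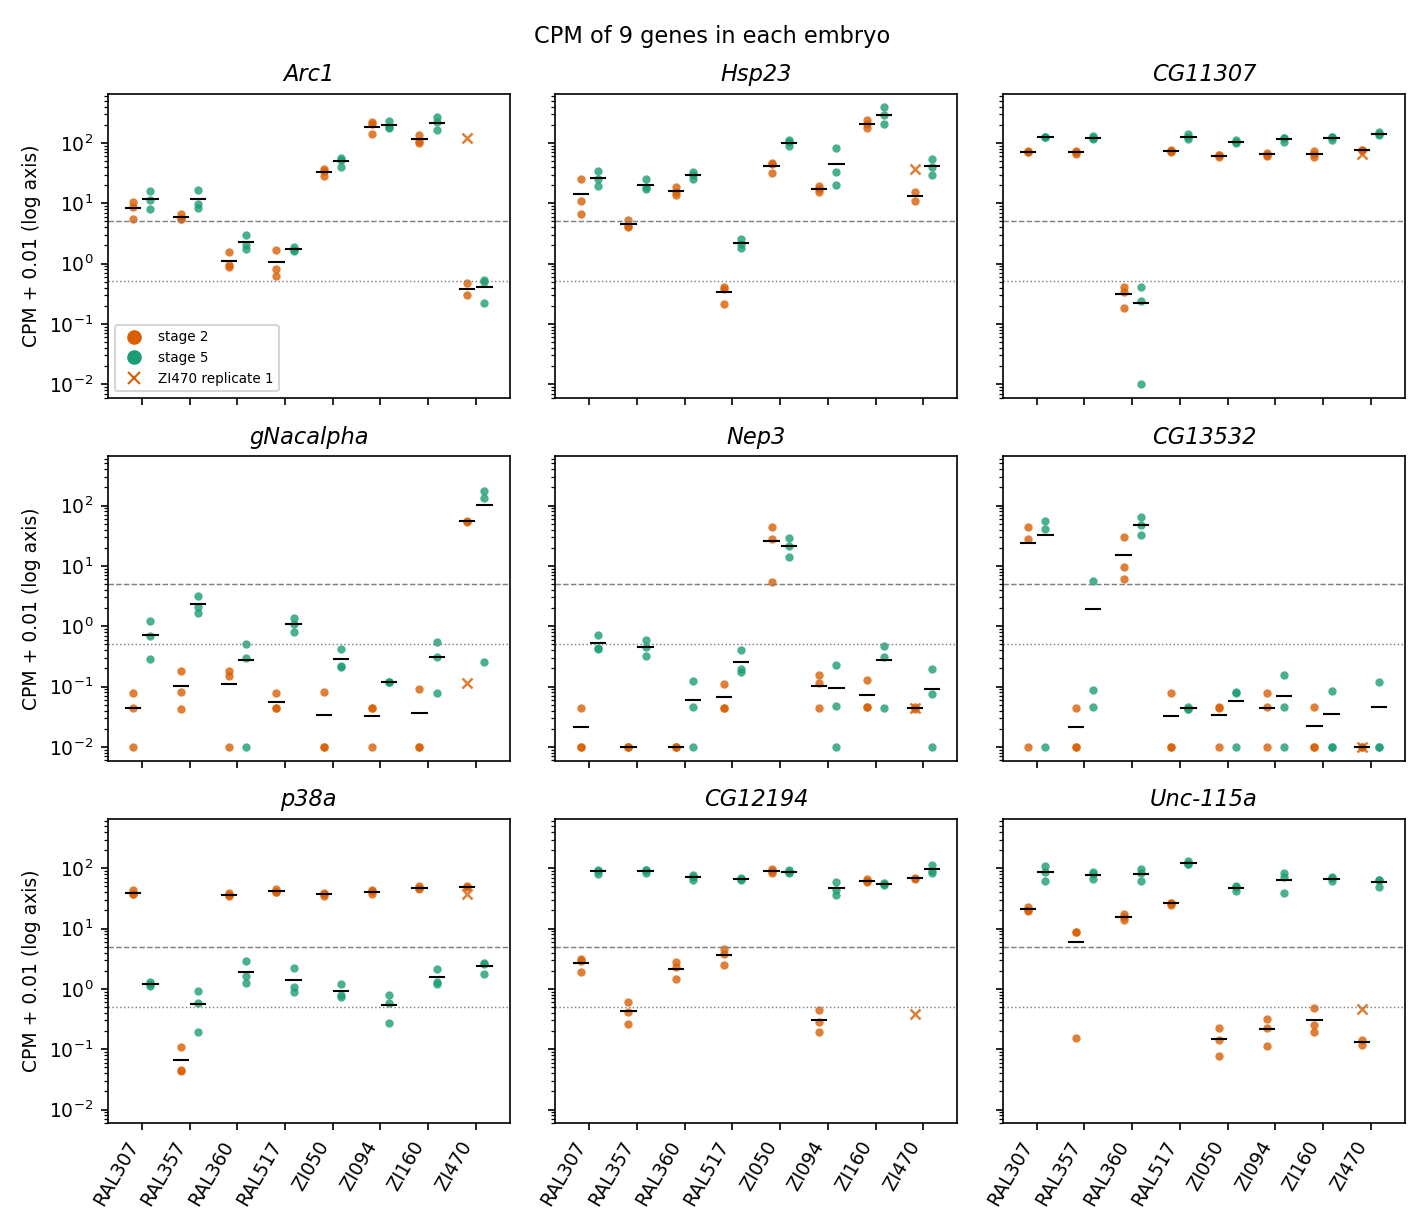
CPM, with 0.01 added, of 9 of the genes in each embryo at stage 2 (orange) and stage 5 (green), on a log axis. Bars are the means of a line, crosses are ZI470 replicate 1 of stage 2, which is left out of the bar, and dotted and dashed lines are the limits of 0.5 and 5 CPM. The off line is low at both stages in Arc1, Hsp23 and CG11307, whereas at stage 5 CG12194 and Unc-115a are high in all lines and p38a is under 5 CPM in all embryos.

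Among gene groups, cytochrome P450 and heat shock genes gave more than 1 member. Cytochrome P450s oxidise hormones and foreign compounds, and 5 of the 17 that reached 5 CPM in a line were members, namely Cyp12d1-p, Cyp12d1-d, Cyp6a13, Cyp12c1 and Cyp6a17. Of 17 heat shock genes 5 were members, Hsp23 and 4 Hsp70 copies, and of 18 glutathione S-transferases 1 was, GstE9. The other groups gave 1 gene (the chemosensory receptor gene Ir76a of 2 expressed and the zinc transporter gene Zip89B of 7 expressed genes with symbols of zinc-binding proteins or zinc transporters) or none. None came from 35 tRNA synthetase genes, 71 mitochondrial and 83 cytosolic ribosomal protein genes, 5 UDP-glycosyltransferase genes or 6 esterase genes that reached 5 CPM. Genes known only by a CG number made up 65 members, or 48.9%, against 28.8% of all genes that reached 5 CPM. These lists were chosen with earlier results of the data known, and their counts are a description.

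The P450 genes differed in which lines they marked. The neighbours Cyp12d1-p and Cyp12d1-d, mitochondrial P450s at 2R, 11117225 to 11125647, were on in RAL307, ZI050, ZI160 and ZI470 and off in RAL517, with Cyp12d1-p at 14.9, 35.4, 32.8 and 7.19 CPM in the on lines and 0.225 CPM in RAL517. They are close copies of each other, so reads of one may have been counted for the other. Cyp12c1 was on in ZI050 alone (10.9 to 13.1 CPM, at most 0.326 CPM elsewhere), and Cyp6a13 in RAL307 alone (20.2, 12.1 and 8.10 CPM). Cyp6a17, a gene known for its role in temperature preference, was off in RAL517 (0.0113 CPM) and on in RAL307, RAL357, RAL360 and ZI050 at 5.13 to 7.98 CPM. GstE9 was on in ZI050 (5.78 CPM) and off in RAL517 and ZI470 (0.417 and 0.174 CPM).

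The Hsp70B genes (3R, 12465453 to 12511461) encode nearly the same heat-inducible chaperone, and how reads that fit several copies were assigned is not given in the sources used here, so they are not 4 independent members. All were off in ZI050, at 0.227 to 0.263 CPM, and highest in ZI160, at 8.69 to 9.93 CPM. Hsp70Ba was also off in ZI094 (0.349 CPM), where the other copies were just above the lower limit at 0.547 to 0.617 CPM.

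The genes lay on all large chromosome arms. The X chromosome held 26, arm 2L 20, 2R 27, 3L 22, 3R 34 and chromosome 4 held 4. These were 1.75% to 2.29% of the genes of each large arm that reached 5 CPM, and 7.55% of the 53 on chromosome 4, which were Cadps, CG11155, NfI and mGluR. Exonic length was 2371 bp at the median, against 2176 bp for all genes at 5 CPM or more. Another member lay within 10 kb for 11 genes, and 10 genes formed 4 runs of neighbouring protein-coding genes, namely the Cyp12d1, Arc and Hsp70 genes and the pair CG14102 and Ir76a. Of these runs only the Cyp12d1 pair had the same states in all 8 lines. The annotated spans of 63 of the genes, introns included, overlapped that of another gene. For 31 this was on the same strand and for 32 on the other strand only. Whether their exons overlap was not tested, so how far reads of such genes can be told apart is not known here. The share of overlaps over all genes was not computed. CG14102 and Ir76a are a pair of overlapping genes on opposite strands (3L, 19798975 to 19803427).

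At stage 5 the lines that had been on were higher than those that had been off, with many exceptions. The median stage 5 line mean was 6.09 CPM for on lines, 2.04 CPM for lines between the limits and 0.506 CPM for off lines. Of the 337 on line means 187 (55.5%) were again at 5 CPM or more and 27 (8.01%) were under 0.5 CPM, and of the 387 off line means 191 (49.4%) were again under 0.5 CPM and 67 (17.3%) had reached 5 CPM. By line, 13.0% of the off genes of RAL517 and 21.6% of those of ZI050 had reached 5 CPM, with the other lines in between.

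Seen by gene, 43 of the 133 met both limits at stage 5, 19 were at 5 CPM or more in all 8 lines, 27 were at 5 CPM or more in some lines and under 0.5 CPM in none, and 44 reached 5 CPM in no line, 8 of these being under 0.5 CPM in all. The shares of these classes over all genes were not computed, so the class counts have no baseline and are a description. In line means, every on line was above every off line for 110 genes and below for 1. For all genes tested at stage 5, over the same combinations of lines, that was so in 21.7% and 18.3% of cases. The mean of the on lines was at least 2-fold above that of the off lines (0.1 CPM added to each) for 102 of the 133 genes, with a median log2 ratio of 2.46, against 7.10% of cases and a median of 0.02 over all genes tested.

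For each gene the stage 5 embryos of its on lines were tested against those of its off lines, in 1 fit of 10000 genes over all 24 embryos (edgeR's quasi-likelihood test, Benjamini-Hochberg adjusted p under 0.01). Of the 133 genes 100 were called higher in the lines on at stage 2, 1 was called lower, 24 were not called and 8 did not pass the filter on stage 5 counts and were not tested. Among these 8, CG31955 had 43 and 61 counts in RAL360 replicates 1 and 2, its on line, and 0 in the shallow replicate 3. Over all 10000 genes and the 112 combinations of lines 11.5% of tests were called higher and 10.9% lower. Any difference among the 8 lines was called for 119 of the 133 genes, against 73.6% of all genes, so a difference among lines of some kind was common at this stage. The calls rest on the spread between embryos of the same line, and each combination compares these particular lines. With the counts of each line summed, so that lines are the replicates, 2 of the 26 genes with at least 2 lines on and 2 off were called (CG17470 and euc, named after their values were seen), against 20 of them with embryos as replicates and 0.00329% of all tests with sums. In that fit 23 of the 26 were tested, and 18 had an unadjusted p under 0.05 and were higher in the on lines. The share over all genes at that unadjusted p was not computed, so this count has no baseline.

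**Figure D5:**
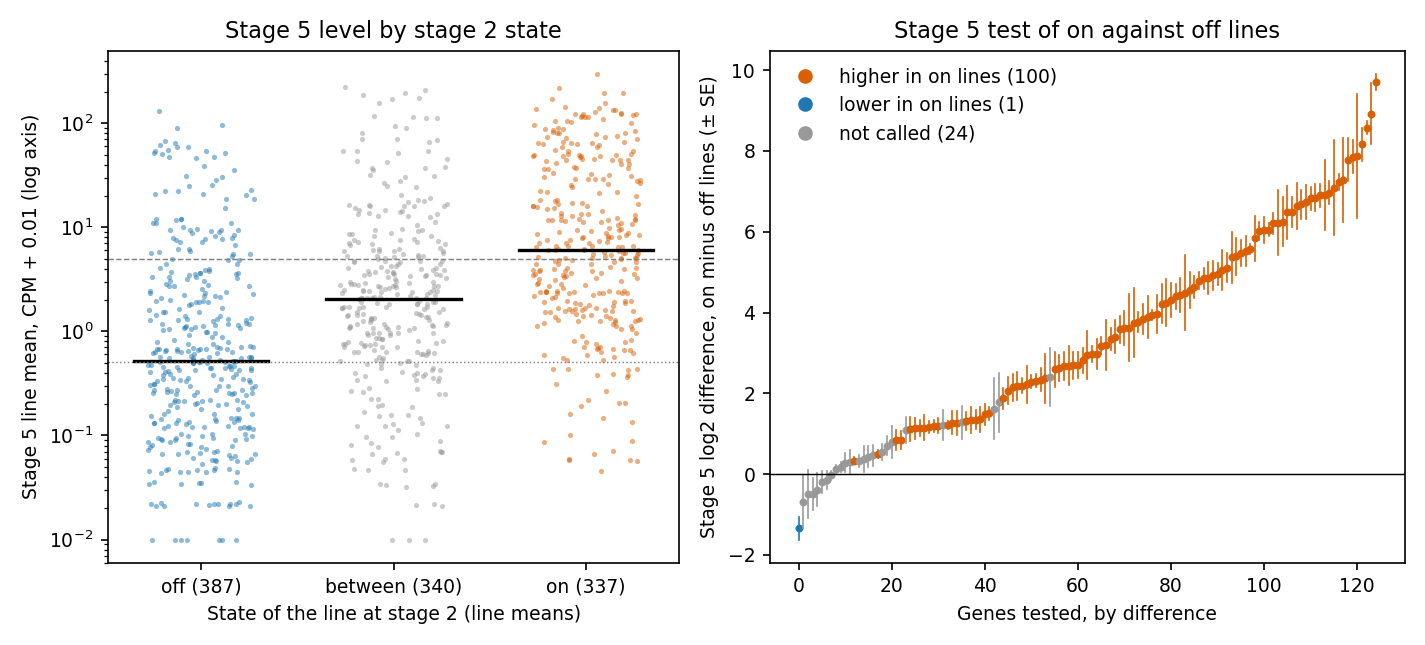
Left, stage 5 line means of the 133 genes, as CPM with 0.01 added on a log axis, by the state of the line at stage 2 (number of line means in brackets, bars are medians, dotted and dashed lines the limits of 0.5 and 5 CPM). Right, log2 difference between the lines on and off at stage 2 in the stage 5 embryos of the 125 genes tested, with an SE derived from edgeR's log2 difference and F statistic. Of these, 100 genes were called higher in the on lines and 1 lower.

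In many genes the line that lacked the maternal transcript also lacked it at stage 5. CG11307 had 0.229, 0.397 and 0 CPM in RAL360 at stage 5, the last in the shallow embryo, and 98.3 to 150 CPM in the other embryos, a log2 difference of 8.58 ± 0.17 (SE; edgeR adjusted p = 7.03e-20). Mth had 0.727, 0.902 and 0 CPM in RAL360 and 35.7 to 89.3 CPM elsewhere (log2 6.05 ± 0.16, edgeR adjusted p = 1.50e-17). Arc1 had 0.214, 0.477 and 0.520 CPM in ZI470 and 8.10 to 271 CPM in the 15 embryos of its on lines (log2 6.84 ± 0.33, edgeR adjusted p = 1.97e-12). The ranges of on and off embryos did not overlap in any of the 3.

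Hsp23 kept the order of its lines in part. RAL517 had 2.13, 1.82 and 2.53 CPM at stage 5, the lowest level of the 8 lines, and ZI160 had 206 to 390 CPM, the highest (log2 difference of on and off lines 4.85 ± 0.41, edgeR adjusted p = 8.06e-09). Pst stayed high in RAL517 and ZI050 at 28.7 and 37.7 CPM, but was 1.87 CPM in RAL357, which had also been the lowest of its on lines at stage 2. Lime, off in ZI160 at stage 2, was present there at stage 5 with 25.8, 20.5 and 20.6 CPM, below the 40.8 to 180 CPM of the other embryos (log2 2.19 ± 0.18, edgeR adjusted p = 3.16e-09).

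Genes on in 1 line at stage 2 gave 47 calls higher out of 64, and those on in 1 and off in 7 gave 10 of 15, against 12.1% and 12.3% of the tests of all genes over the same combinations of lines. Cyp12c1 had 28.8, 27.5 and 23.8 CPM in ZI050 and at most 0.406 CPM in the other lines (log2 9.71 ± 0.19, edgeR adjusted p = 1.29e-16), and Nep3 had 21.5, 28.6 and 14.2 CPM in ZI050 and at most 0.716 CPM elsewhere (log2 6.90 ± 0.29, edgeR adjusted p = 4.37e-14). CG13084 in ZI094 and CG17919 in ZI470 were likewise set apart, with log2 differences of 6.05 ± 0.32 and 5.57 ± 0.12. GNacalpha was split within ZI470, where replicates 2 and 3 had 173 and 133 CPM and replicate 1 had 0.249 CPM, within the range of the other lines (0 to 3.17 CPM). Its log2 difference was 7.79 ± 0.54 (edgeR adjusted p = 3.25e-10).

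Of the 15 cases in which embryos of a line lay on either side of both limits at stage 2, 2 did so again at stage 5, CG13532 in RAL307 and CG17470 in RAL357. In 5 cases, of Unc-115a, Kank, GLaz, modSP and CG42342, every embryo of the line was then at 5 CPM or more, in 7 none reached 5 CPM, and in the case of dao the embryos had 2.52 to 6.07 CPM. CG13532 had 55.6 and 40.7 CPM and no count in the 3 RAL307 embryos, and 5.67 CPM in RAL357 replicate c, while its line mates had at most 0.0788 CPM. Swi2 was at 3.49 and 3.55 CPM in RAL307 replicates 1 and 3 and 0.167 CPM in replicate 2. CG17470 had 7.08 CPM in RAL357 replicate c and at most 0.0365 CPM in a and b. A replicate number does not join an embryo of stage 2 with one of stage 5.

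The detoxification genes kept their direction, as most members did. Of all members, 75.2% were called higher in their on lines and 0.752% lower. Whether the detoxification genes differ in this from the other members was not tested. Cyp12d1-p and Cyp12d1-d are close copies of each other, so they are not independent cases. All 5 P450 genes and GstE9 were called higher in their on lines, with log2 differences of 6.68 ± 0.35 for Cyp12d1-p, 6.83 ± 0.28 for Cyp12d1-d, 5.53 ± 0.37 for Cyp6a13, 3.75 ± 0.85 for Cyp6a17 and 2.34 ± 0.28 for GstE9 beside that of Cyp12c1. Cyp12d1-p had 72.7 to 76.2 CPM in ZI050 and 58.1 to 72.6 CPM in ZI160, against 0.110 to 0.586 CPM in RAL517. Cyp6a17 was low at stage 5 in every line, with a mean of 0.634 CPM over its on lines and at most 3 counts in an off embryo, and its call was lost without RAL517 replicate 1 or 3 (adjusted p up to 0.0208).

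The Hsp70B genes had higher line means at stage 5 than at stage 2 in every line. Hsp70Bbb, off in ZI050 at stage 2, had 25.2 CPM there at stage 5, below 71.5 CPM as the mean of its on lines (log2 1.36 ± 0.31, edgeR adjusted p = 0.00177). The highest line was then ZI470 with 224 CPM, a line between the limits at stage 2. The other copies had log2 differences of 1.15 to 1.27, and each of the 4 lost its call without 1 or more single embryos, of ZI050 in 3 copies and of ZI160 in Hsp70Ba.

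In another group the off lines also had high levels at stage 5. Of the 19 genes at 5 CPM or more in all lines 12 were still called higher in the on lines, against 11.3% of tests over all genes at such levels and the same combinations of lines. CG12194, with stage 2 line means of 62.0 to 90.2 CPM in its on lines and 0.299 and 0.419 CPM in ZI094 and RAL357, had 46.6 to 95.7 CPM in all 8 lines at stage 5, and its difference was small (log2 0.33 ± 0.09, edgeR adjusted p = 0.00579) and was lost in 7 of the 24 fits without 1 embryo (adjusted p up to 0.0206). For Unc-115a it was 0.50 ± 0.11 (edgeR adjusted p = 0.000620), and the embryos of the populations overlapped. Nrm had 59.4 and 89.2 CPM in ZI470 and RAL517 and 7.73 to 30.7 CPM in the other lines (log2 1.51 ± 0.16, edgeR adjusted p = 4.65e-07).

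Gli, which encodes the septate junction protein Gliotactin, was off in ZI050 at stage 2 (0.309 CPM) and had 70.5 to 139 CPM in all lines at stage 5, with no call (log2 0.12 ± 0.10, edgeR adjusted p = 0.356). CG42342, Kank, GLaz and tty were also above 5 CPM in every line at stage 5 and not called. Kank was on in RAL307 alone at stage 2, yet its highest stage 5 line mean was 59.1 CPM in ZI470, and its highest stage 5 embryo, ZI160 replicate 2, had 122 CPM.

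Other genes left little RNA at stage 5. P38a had line means of 0.541 to 2.35 CPM, with 0.557 CPM in RAL357, its off line at stage 2, and was not called (log2 1.21 ± 0.37, edgeR adjusted p = 0.0151). CG4267 was at most 2.31 CPM in a line and still higher in its on lines (log2 1.34 ± 0.32, edgeR adjusted p = 0.00262), a call lost without ZI470 replicate 2 or 3 (log2 1.03 and 1.28, adjusted p = 0.0363 and 0.0203). CG12708, a gene with 70.4 CPM in RAL307 and 0.0228 CPM in ZI050 at stage 2, had 3.47 to 7.88 CPM in all lines at stage 5 (log2 -0.03 ± 0.12, edgeR adjusted p = 0.862). Unlike p38a, it was higher at stage 5 than at stage 2 in its off lines, with a mean of 6.13 CPM over them. Dao had a log2 difference of 2.22 ± 0.45 (edgeR adjusted p = 0.000641), which DESeq2 did not call (log2 1.22, adjusted p = 0.0687) and which was lost without RAL360 replicate 1 or 2. Its off lines included RAL360, whose stage 5 mean of 6.16 CPM came from the shallow embryo.

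CG14102 was the gene called in the opposite direction. At stage 2 it was off in ZI094 (0.136, 0.137 and 0 CPM) and on in 6 lines, with line means of 9.35 to 39.8 CPM. At stage 5 ZI094 had 2.66, 1.92 and 7.53 CPM, the highest line mean of the 8, while the on lines had line means of 0.553 to 3.81 CPM (log2 -1.34 ± 0.28, edgeR adjusted p = 0.000947). The embryos overlapped, and without ZI094 replicate 3 (7.53 CPM) the log2 difference was -0.56 and was not called (edgeR adjusted p = 0.157). Ir76a, on the other strand of the same locus, was higher in its on lines (log2 3.59 ± 0.33, edgeR adjusted p = 5.96e-08).

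Between the populations, 14 of the 133 genes were called higher in Zambia at stage 5 and 23 lower, or 10.5% and 17.3% (edgeR with the 12 embryos of a population as replicates, adjusted p under 0.01), against 6.01% and 7.25% of all genes. Of the 45 genes on in Raleigh lines alone 19 were lower in Zambia and 1 was higher, and of the 36 on in Zambia lines alone 9 were higher and none lower. Of the 52 on in both 4 were higher and 4 lower. Embryos of 4 lines are not independent samples of a population, and with the counts of each line summed none of the 133 genes was called. In that fit 36 of the 133 had an unadjusted p under 0.05. The share over all genes was not computed, so this count has no baseline.

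Unc-115a was lower in Zambia by 0.52 ± 0.13 on the log2 scale (edgeR adjusted p = 0.00587). Cadps, a gene of regulated secretion, had 37.3 to 54.4 CPM in Raleigh and 18.5 to 24.7 CPM in Zambia lines, which did not overlap, and fell by 0.98 ± 0.11 on the log2 scale (edgeR adjusted p = 1.26e-06). Other calls rested on few lines. Cyp12c1 was called higher in Zambia (log2 8.49 ± 1.51, edgeR adjusted p = 0.000311) from ZI050 alone, with 26.7 CPM there and at most 0.339 CPM in another Zambia line, and Hsp23 (log2 2.78 ± 0.54, edgeR adjusted p = 0.000655) while ZI160 and ZI050 had 297 and 101 CPM and ZI094 and ZI470 45.0 and 40.9 CPM.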

How the data were processed

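The authors sequenced polyA RNA of 48 single embryos with paired reads, which were trimmed by Cutadapt, mapped by HISAT2 (version 2.1.0) on the FlyBase 6.18 genome and summed per gene by featureCounts, whose settings for strand and multiply mapped reads are not given in the sources used here. The deposited values are counts without normalization for 17481 genes, of which 17343 matched the BDGP6.54 annotation used for symbols, types and positions.

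CPM is a gene's count for every 1000000 counts of the embryo. RAL357 embryos have the same number in their column names and were called a, b and c by column order. Line names are those of the labels and column names, and no line was checked by genotype here. The members and the gene lists were chosen with earlier results of these data known. Stage 5 was tested with edgeR 4.0.16 (R 4.3.3) by quasi-likelihood F-tests over 24 embryos with line as factor, or population for the populations, after TMM normalization and filterByExpr by line (at least 10 counts in enough embryos and 15 in total), at a Benjamini-Hochberg adjusted p under 0.01. The SE of an edgeR difference was derived as the absolute log2 difference divided by the square root of the F statistic. Other steps used Python 3.11.15. The fit was tested on simulated data. No 2 embryos of a line and stage had the same counts within sampling noise (lowest chi-squared per degree of freedom 3.68, median 35.9, in 48 pairs). Embryos of a line share its stock, so p-values measure the spread between embryos of these lines. The number of counts limits low values: 3 counts are 8.80 CPM in RAL360 replicate 3 of stage 5.

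Genes were named by a rule: the 12 with the highest stage 2 line mean, the highest of those off in a whole population, off in 1 line or on in 1 line, those called in the opposite direction, those in runs with the same states, those in the lists and those nearest the limits. Other genes were named after their values were seen, among them p38a, Gli, Kank, Galphaf, Cadps, CG13532, CG17470, euc and swi2. Alternatives were other limits, TMM library sizes, medians, ZI470 replicate 1 kept, DESeq2 1.42.0, its size factors, other filters, a threshold of 0.05, sums per line, a replicate block and leaving out each embryo.

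After removal of line means, 9 of 63 pairs of stage 5 embryos of different lines with equal replicate numbers correlated above 0.1. Pairs with unequal numbers were not compared, so this cannot decide whether the numbers mark a pairing. The main fits did not treat them as one, and a fit with the number as a block is given below.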

Additional observations from a re-analysis of the deposited data

Results flagged for a closer look

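ZI470 replicate 1 of stage 2 was not used to choose the genes, and it held signal in 6 genes that were off in its line mates. It had 119 CPM of Arc1, 61.8 CPM of firl, 55.8 CPM of Zip89B, 13.6 CPM of CG11275, 12.1 CPM of CG4267 and 6.74 CPM of Arc2. Zip89B and firl were higher in this embryo than in any on line (6.92 CPM in RAL307 and 5.14 CPM in RAL357), and Arc1 lay between ZI160 and ZI094. Whether the embryo belongs to another line was not tested.

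Outside the protein-coding genes, 14 genes of the table met both limits at stage 2. They were 5 noncoding RNAs and 5 pseudogenes of the annotation and 4 identifiers that were not matched to it, with the pseudogene CR10102 highest at 73.2 CPM in ZI094 against 0.151 CPM in ZI470, and none was used above.

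CG14102 drew attention because its stage 5 difference, -1.34 on the log2 scale, was opposite in sign to that of stage 2. The difference between the stages was not tested.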

How the results depend on the processing

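The number of genes that met both limits at stage 2 was 132 with TMM library sizes, 138 with medians, 97 when every embryo had to pass, 95 and 189 with lower limits of 0.25 and 1 CPM, 147 with all gene types and 155 with ZI470 replicate 1, and moved by over 1.5 times with upper limits of 10 CPM (86 genes) and 2.5 CPM (210 genes). Without each embryo in turn it was 132 to 137.

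Of the 133 genes, those higher at stage 5 in the lines on at stage 2 numbered 99 with DESeq2, 101 with no filter, 71 when all embryos of some line had to reach 5 CPM, 101 without RAL360 replicate 3 and 94 to 102 without each embryo, and those lower 0 to 1 without each embryo and 0 with that filter, which leaves 80 of the genes to test and not CG14102. With it 79 genes differed among the 8 lines (118 to 121 without each embryo). Between the populations 25 were higher and 37 lower in Zambia at an adjusted p under 0.05, none either way with sums per line, and 10 to 16 higher and 18 to 24 lower without each embryo. With sums per line 2 of the 26 genes with at least 2 lines on each side were called higher in the on lines, in place of 20. Shares over all genes are not given for these other filters, thresholds and left-out embryos. Their counts therefore have no baseline and show only how far the number of calls moved.

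With the replicate number as a block, in the 7 lines other than RAL357, whose embryos share a number, 89 genes were higher and 1 lower in their on lines, 116 differed among lines, and 8 were higher and 17 lower in Zambia. The same 7 lines with no replicate block, a fit chosen after seeing the data, gave 90, 1, 116, 9 and 23. The shares over all genes in these fits are not given either.

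CG12708 changed sign, from -0.03 to 0.0084 with the filter of 5 CPM, 0.0014 with DESeq2 and 0.0012 without ZI160 replicate 3, each inside its SE, was -0.0988 to 0.0012 without each embryo, and was called in none. In the 7 lines other than RAL357 the difference of CG12194 was 0.77 in place of 0.33, one of its off lines being left out. Of the 33 named genes tested 11 lost or gained the call in a setting, CG13101 in 19, CG12194 and Hsp70Bc in 7 each and the others in 1 to 3.

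Depth limits mainly RAL360 replicate 3 of stage 5, where a gene with no count is not shown to be off, since 3 counts are 8.80 CPM there.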
